A study of Equus caballus with 14 samples.

Results

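The 150 genes described here varied widely among biopsies of cyclic endometrium and less widely among biopsies of pregnant endometrium, all taken on day 13 after ovulation. Their level was expressed as log2(CPM + 0.5), in which CPM is the number of counts per 1000000 counts of the library. Of the 26740 genes in the count files, 11886 exceeded 4 CPM in at least 4 of the 9 endometrium samples and are called the filtered genes below. Within these, the members were the 150 genes with the largest standard deviation (SD) over the 4 cyclic samples minus the SD over the 5 pregnant samples. The SDs of both groups therefore chose the members, and they are given as a description without a test.

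Cyclic endometrium (n = 4) came from Warmblood mares that had been left unbred, and pregnant endometrium (n = 5) came from mares inseminated with fresh semen and found pregnant. Ovulation had been induced with hCG in both kinds of cycle. Mares served as their own controls, so cyclic and pregnant samples with the same number were taken to come from the same mare. Pregnant sample 5 had no cyclic partner, because the study left cyclic mare 5 out of RNA sequencing for low quality. The biopsy was the last step of sampling, after the flush of the uterus that recovered the embryo in pregnant cycles. Embryos (n = 5) were flushed from the pregnant mares on the same day, and their capsule and yolk sac fluid had been removed.

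Around this day the endometrium of a mare without an embryo starts to release prostaglandin F2α, which ends the life of the corpus luteum and the supply of progesterone. An equine conceptus that moves through the uterus prevents this release, and the signal by which it does so is unknown. A biopsy holds luminal and glandular epithelium, stroma, vessels and immune cells together, so that fewer cells of a type and less RNA per cell cannot be told apart in any of the results below.

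The count files name genes by Ensembl identifier alone. None of the 26740 identifiers (0 matches) could be paired with a symbol from RefSeq, so the role of each gene is not stated, sequences are not printed and the tissue was not checked against marker genes. For 4 members the identifier is given with its values, chosen by a rule that is stated with the methods.

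Endometrium libraries held from 21.8 to 46.9 M counts (M stands for 1000000). Cyclic sample 2 was the smallest of them and had 14569 genes with at least 10 counts, against 14963 to 15354 in the other 8. Among embryos, sample 1 stood apart, with 4584 such genes against 12488 to 14340, and embryo results are therefore given with and without it.

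The members spanned a wide range of levels in cyclic mares. Their SD over the cyclic samples had a median of 1.48 on the log2 scale and reached from 0.93 to 4.10, while the SD over the pregnant samples had a median of 0.50 and reached from 0.058 to 2.52. For the median member, the highest cyclic sample was 10.3-fold above the lowest, against 2.37-fold in the pregnant samples. Over all filtered genes these medians were 1.71-fold and 1.51-fold. The last member had an SD difference of 0.831 and the first gene outside the choice had 0.829, so the border cut through a continuous distribution.

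Being even in pregnancy was relative. The SD over the pregnant samples exceeded the median of all filtered genes (0.24) for 133 of the 150 members, and 64 members were among the 10% of filtered genes with the widest pregnant spread. Members were thus less variable in pregnant than in cyclic mares, but most were more variable than a typical gene in both. A wider cyclic spread was also common beyond the members: it was found in 8826 of 11886 filtered genes (74.3%), with a median SD difference of 0.11. At the opposite end of the distribution the difference was smaller in size, with -0.31 at the 150th gene counted from that end.

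To see the levels in samples that had not been used to choose genes, the choice was repeated 9 times, each time without 1 endometrium library. The chosen genes were then read in that library. When a cyclic sample had been left out, its median distance to the pregnant mean over the 150 chosen genes was between 0.44 and 0.73 on the log2 scale. When a pregnant sample had been left out, its median distance to the mean of the other pregnant samples was between 0.36 and 0.77. Left-out cyclic and pregnant samples therefore lay at overlapping distances. Over all filtered genes the distance was between 0.21 and 0.34 in cyclic samples and between 0.17 and 0.21 in pregnant samples. Genes chosen in this way thus lay farther from the pregnant mean than others in the libraries that had not chosen them, in pregnant as well as in cyclic mares. In cyclic samples this distance also holds any difference between the groups, so it does not measure the spread among cyclic mares. The share of genes for which a left-out sample fell outside the range of the others is given as a description, because the choice of genes narrows the pregnant range and widens the cyclic range. A left-out pregnant sample fell outside the other 4 for 40% to 68.7% of the chosen genes, against 32.4% to 43.3% of all filtered genes. A left-out cyclic sample fell outside the other 3 for 14% to 20% of the chosen genes, against 42.6% to 54.3% of all. It fell outside the pregnant range for 44.7% to 56.7%, against 36.6% to 54.4% of all, and for cyclic sample 2 this share was lower in the chosen genes (52.7%) than in all (54.4%).

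**Figure D1:**
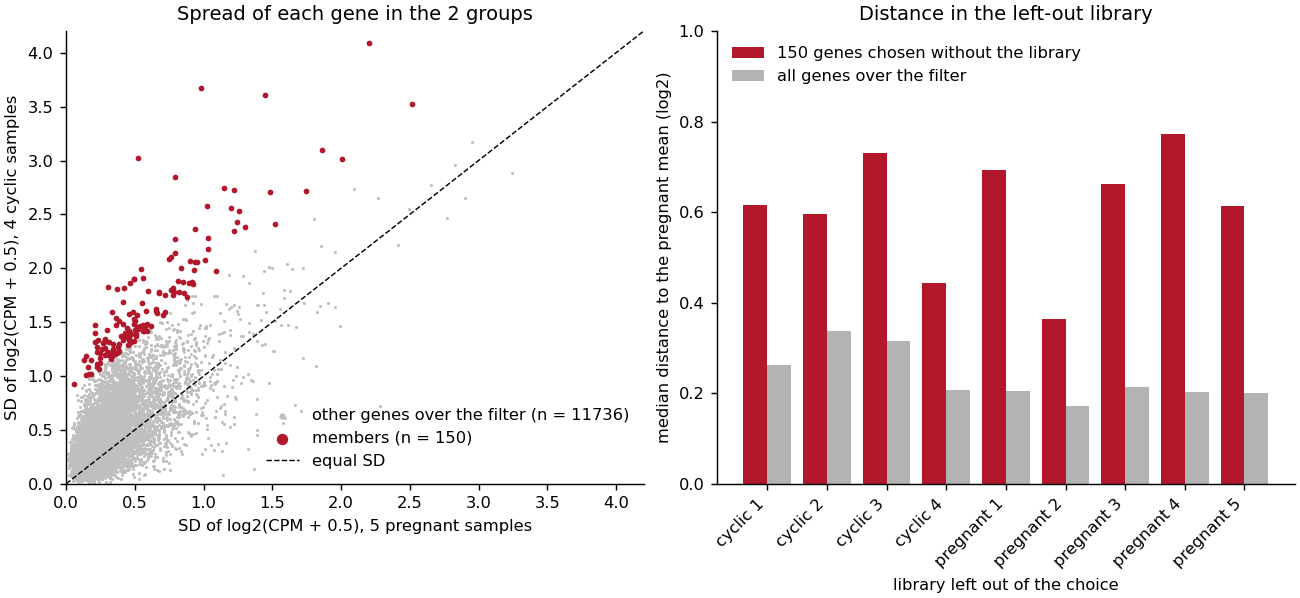
Left, the SD of log2(CPM + 0.5) of each filtered gene over the 5 pregnant samples (x axis) and the 4 cyclic samples (y axis), with the 150 members in red, the other genes in grey and a dashed line of equal SD. Right, the median log2 distance to the pregnant mean in each library left out of the choice, for the 150 genes chosen without it (red) and all filtered genes (grey), in which the red bars of left-out cyclic libraries (0.44 to 0.73) and pregnant libraries (0.36 to 0.77) overlap.

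No single cyclic biopsy accounted for the spread. For each gene, the cyclic sample farthest from the cyclic mean was taken as the one that drove its spread. This was cyclic sample 2 for 54 members (36%), sample 3 for 44 (29.3%), sample 1 for 40 (26.7%) and sample 4 for 12 (8%). Over all filtered genes the shares were 32.4%, 30.7%, 20.2% and 16.7%. Cyclic sample 2 also carried the largest part of the squared deviation of members (35.1%), against 24.6% over all filtered genes. Which sample came first depended on the choice of genes: with 300 members, or with members over 4 CPM in all 9 samples, it was cyclic sample 3.

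For cyclic sample 2, the side on which it lay farthest set members apart from other genes. Cyclic sample 2 lay above the other 3 for 38 members (25.3%) and below them for 16 (10.7%). Among all filtered genes it lay above for 6.51% and below for 25.9%, so the balance was the opposite of that in the members. The split of all filtered genes depended on the scaling, with 10.4% above and 18.5% below under TMM-scaled library sizes, under which 46 members lay above and 13 below. Sample 3 lay below for 34 members (22.7%) and above for 10 (6.67%), against 18.8% and 11.9% of all filtered genes. Sample 1 lay below for 26 (17.3%) and above for 14 (9.33%), against 9.89% and 10.3%. Sample 4 lay above for 7 (4.67%) and below for 5 (3.33%), against 11.9% and 4.85%. For samples 3 and 4 the larger side was thus the same in members and in all filtered genes. In all, cyclic sample 2 had the highest cyclic level in 56 members, beside 13.6% of all filtered genes. Cyclic sample 3 had the lowest in 56, beside 29.6%.

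**Figure D2:**
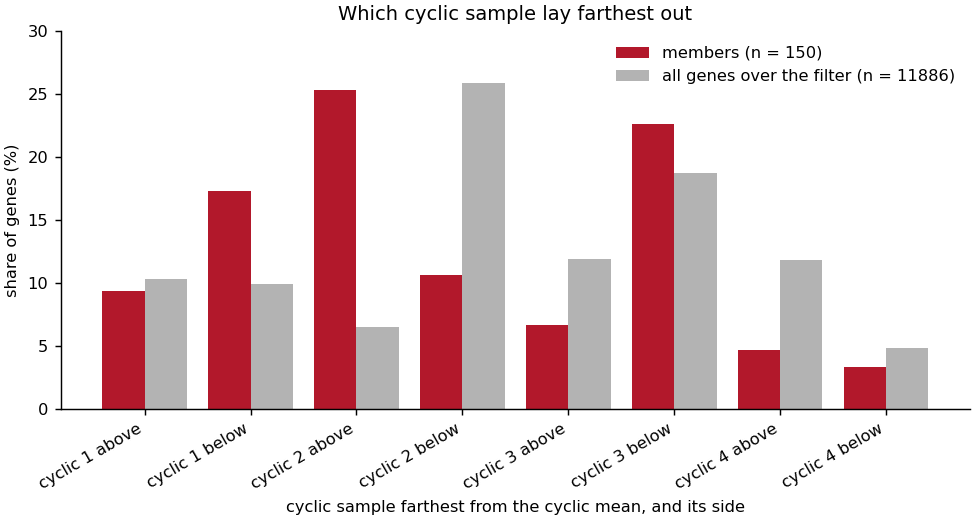
Share of genes (y axis, in %) by the cyclic sample that lay farthest from the cyclic mean and its side (x axis), for the 150 members (red) and all 11886 filtered genes (grey). Cyclic sample 2 above the mean holds 25.3% of members against 6.51% of all genes, and cyclic sample 2 below the mean holds 10.7% against 25.9%.

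The way in which the 4 cyclic values were split was much like that of genes at large. The largest of the 3 gaps between the sorted cyclic values took a median of 59.4% of the range and separated 1 low sample from 3 in 57 members, 1 high sample from 3 in 51 and a pair from a pair in 42 (38%, 34% and 28%). Among all filtered genes the median was 58.3% and the shares were 44.4%, 27.9% and 27.7%. Among these 42 members, samples 2 and 3 lay below 1 and 4 in 17, samples 1 and 2 below 3 and 4 in 10, samples 3 and 4 below 1 and 2 in 10, and samples 1 and 4 below 2 and 3 in 5.

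The order of the cyclic samples was shared by groups of members rather than by all. Of 24 possible orders, 19 occurred. From low to high, the orders 1-2-4-3, 3-4-1-2 and 4-1-3-2 were found in 15 members each, and 4-3-1-2 in 13. The last 3 of these 4 orders, all with sample 2 at the top, were each found in 1.92% to 2.94% of all filtered genes. A pair of members had the same order in 6.63% of the 11175 pairs and the exact reverse in 5.06%, against 5.98% and 3.95% among all filtered genes. The leading principal component of the cyclic samples held 48.7% of the variance of members and the next held 38.5%, against 49.8% and 33.1% over all filtered genes. The shares of pairs with the same order and of the components were thus close to those among genes at large. The orders themselves were not, as the 3 with sample 2 at the top were more frequent in members. In a group of 4 samples, a correlation between 2 genes carries little information and was not computed.

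Levels within the larger groups are described relative to the pregnant mean of each gene, as medians on the log2 scale. In the 38 members with cyclic sample 2 above, that sample was 2.48 above the pregnant mean, while samples 1, 3 and 4 were at -0.33, -1.26 and -1.66. Pregnant samples 1 and 3 were at 0.42 and 0.59 in this group and pregnant sample 5 at -0.68. In the 34 members with cyclic sample 3 below, that sample lay at a median distance of 2.002 below the pregnant mean, and the other 3 lay between 0.29 and 0.85. In the 26 members with cyclic sample 1 below, that sample was at -2.58 and the other 3 lay between 0.44 and 1.17. In the 16 members with cyclic sample 2 below, that sample was at -2.12 and the other 3 lay between -0.33 and 0.59.

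The pregnant samples also deviated from their mean within these groups, and the rule had used their SD but not their order. In the 26 members with cyclic sample 1 below, pregnant sample 1 was above the pregnant mean in 0 and pregnant sample 2 in 2, whereas pregnant sample 5 was above it in 23. Among the 1175 filtered genes of the same pattern these shares were 30% for pregnant sample 1, 18.8% for sample 2 and 82.3% for sample 5. Where cyclic sample 1 lay above, however, pregnant sample 1 was above the pregnant mean in 4 of 14 members (28.6%), against 60.8% of the filtered genes of that pattern, so that it was low in both groups of mare 1. In the 34 members with cyclic sample 3 below, pregnant sample 3 was above the pregnant mean in 7 (20.6%), against 29.2% of the 2230 filtered genes of that pattern, and pregnant sample 4 in 32. The group with cyclic sample 2 above did not show a like pattern in its own mare, since pregnant sample 2 was above the mean in 17 of 38 members, while pregnant samples 1 and 3 were above it in 31 and 32. Over all 150 members, the cyclic and the pregnant sample of a mare deviated to the same side of their group means in 69 members for mare 1, 76 for mare 2, 86 for mare 3 and 103 for mare 4. The shares were 46%, 50.7%, 57.3% and 68.7%, against 52.3%, 55%, 67.3% and 67.9% over all filtered genes.

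**Figure D3:**
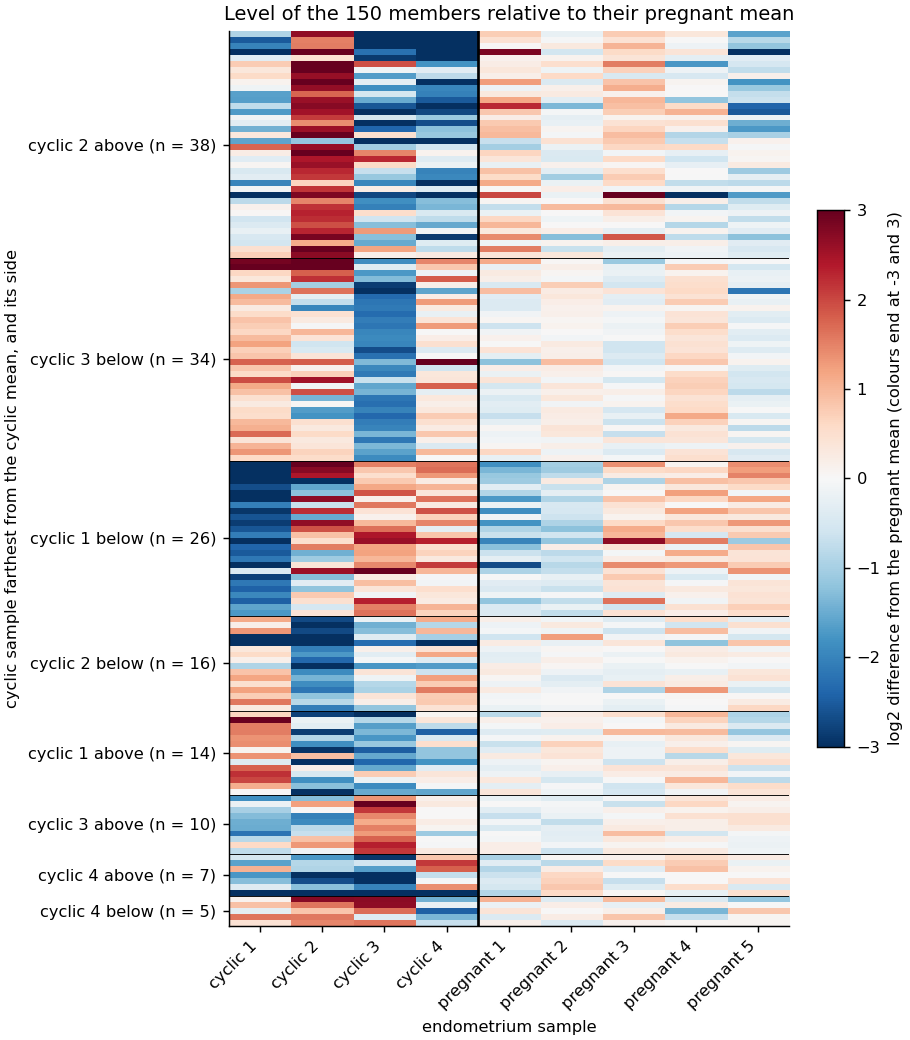
Each row is a member and each column an endometrium sample, coloured by the log2 difference from the pregnant mean of that gene, with colours ending at -3 and 3. Rows are grouped by the cyclic sample farthest from the cyclic mean and its side, and the 38 members with cyclic sample 2 above, the 34 with sample 3 below and the 26 with sample 1 below form the 3 largest groups.

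The pregnant level lay inside the cyclic range in most members, which a wide cyclic range favours. The mean of the pregnant samples was between the lowest and the highest cyclic sample for 140 of 150 members (93.3%), above the highest for 8 and below the lowest for 2. Over all filtered genes the mean was inside for 80%. All 5 pregnant samples were inside the cyclic range in 116 members (77.3%), against 31.1% of all filtered genes.

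Within that range the pregnant level was central. On a scale on which 0 is the lowest and 1 the highest cyclic sample, the pregnant mean had a median position of 0.59 in members, with quartiles at 0.45 and 0.71. Over all filtered genes the median was 0.57, with wider quartiles at 0.32 and 0.79. Narrower quartiles are favoured by the wide cyclic range for which members were chosen. The pregnant mean exceeded the cyclic mean in 93 members (62%), against 55.2% of all filtered genes, by a median of 0.22 on the log2 scale over members and 0.03 over all. Cyclic sample 4 was the nearest to the pregnant mean in 52 members, sample 1 in 40, sample 3 in 33 and sample 2 in 25 (34.7%, 26.7%, 22% and 16.7%), in the same order as over all filtered genes (33.3%, 25.1%, 21.2% and 20.4%).

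In relation to the sample that drove the spread, the pregnant mean fell within the range of the other 3 cyclic samples in 74 members (49.3%) and in the gap between these and the farthest sample in 66 (44%). Over all filtered genes the shares were 46.7% and 33.3%. Where cyclic sample 2 lay above, the gap held the pregnant mean in 22 of 38 members (57.9%), against 28.6% of the 774 filtered genes of that pattern. Where cyclic sample 3 lay below it did so in 15 of 34 members, where cyclic sample 1 lay below in 13 of 26, and where cyclic sample 4 lay below in 3 of 5. All 5 pregnant samples were in the gap in 15 members (10%), against 2.24% of all filtered genes, and 5 of the 15 had cyclic sample 2 above. The larger shares in members are favoured by the wide cyclic and narrower pregnant spread for which they were chosen. They are given as a description only.

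The widest difference in spread was that of ENSECAG00000010818. Cyclic samples 1 to 4 had 23.5, 285, 1.51 and 0.596 CPM, and pregnant samples 1 to 5 had 74.1, 38.02, 76.2, 56.0 and 14.3 CPM. Cyclic sample 2 was thus the highest of all 9, cyclic samples 3 and 4 were the lowest, and the pregnant samples lay between them. The highest cyclic sample was 477-fold above the lowest, against 5.33-fold in pregnancy. Embryos 1 to 5 had 0, 5.28, 25.6, 3.78 and 7.39 CPM, and the level was lower in embryos than in pregnant endometrium (log2 change -1.69, SE 0.73, edgeR likelihood ratio test, adjusted p = 0.0399). This call was lost in 9 of 17 alternatives, among them the quasi-likelihood test (adjusted p = 0.086) and the omission of embryos 2, 4 or 5 or of pregnant samples 1, 2, 3 or 4, with adjusted p from 0.00195 to 0.119 over all 17. Embryo 3 lay within the range of the pregnant samples and the other 4 embryos below it.

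ENSECAG00000016661 followed the same order among cyclic samples at a higher level. It had 96.1, 1589, 22.5 and 15.1 CPM in cyclic samples 1 to 4, a 105-fold range. Pregnant samples 1 to 5 had 769.6, 542, 748, 549 and 313 CPM, all above cyclic samples 1, 3 and 4 and all below cyclic sample 2. In the embryos the levels were 0, 0.681, 4.69, 0.271 and 3.48 CPM, below every endometrium sample, with a log2 change of -7.26 (SE 0.66, edgeR likelihood ratio test, adjusted p = 9.42e-17).

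The other 2 identifiers had cyclic sample 1 below. ENSECAG00000017238 had 0.184 CPM in cyclic sample 1 and 204, 56.1 and 60.3 CPM in cyclic samples 2 to 4. Pregnant samples 1 to 5 had 5.00, 9.25, 51.1, 20.6 and 51.7 CPM, so that pregnant sample 1, from the mare with the low cyclic sample, was again the lowest of its group. In embryos 4 counts in sample 3 were the only ones seen, and the other 4 embryos were at 0 counts. The log2 change between embryos and pregnant endometrium was past both thresholds (adjusted p = 6.62e-12, edgeR likelihood ratio test), and its size is not given because of these zeros.

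ENSECAG00000015137 had 0.316 CPM in cyclic sample 1 and 61.7, 15.9 and 29.2 CPM in cyclic samples 2 to 4. Pregnant samples 1 to 5 had 3.11, 3.92, 13.3, 13.8 and 21.7 CPM, with samples 1 and 2 below the other 3 as for the preceding gene. Embryos 1 to 5 had 0.112, 5.70, 1.42, 4.19 and 1.89 CPM, and a difference from pregnant endometrium was not detected (log2 change -0.71, SE 0.61, edgeR likelihood ratio test, adjusted p = 0.328).

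**Figure D4:**
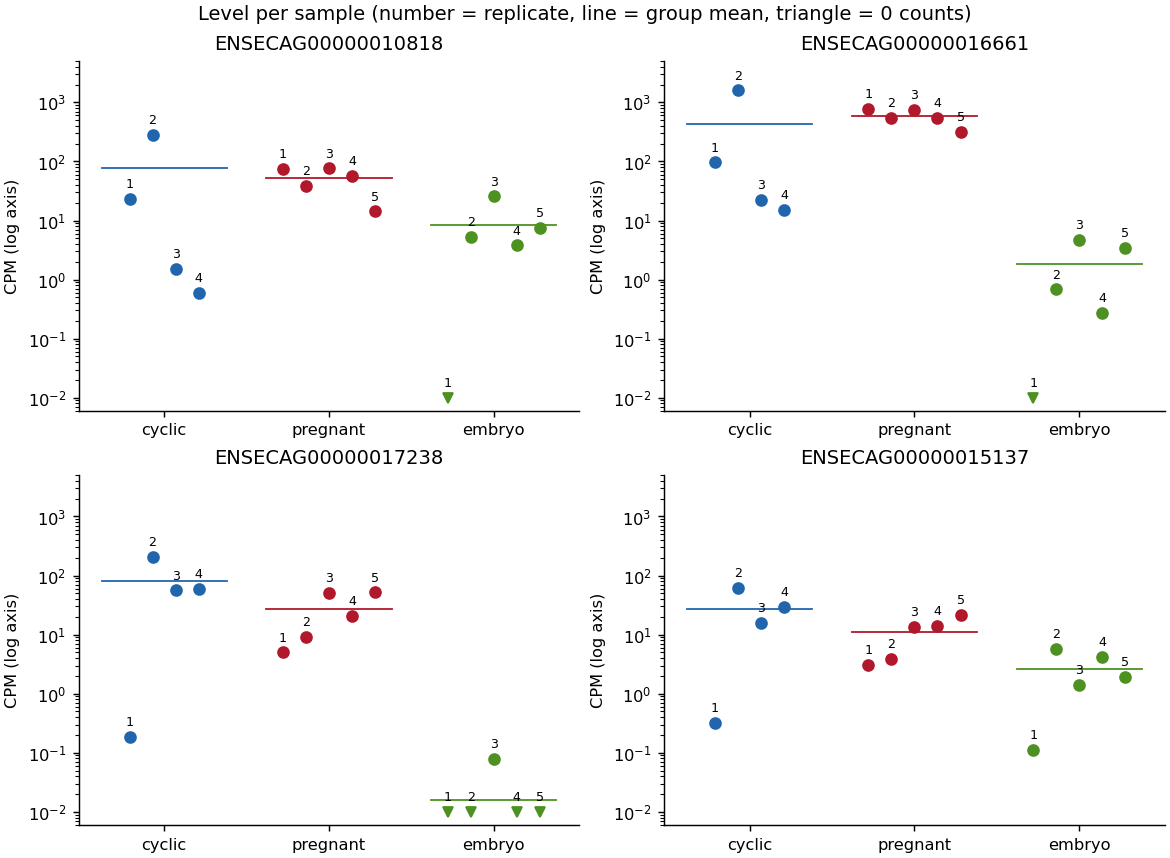
CPM on a log axis (y) of the 4 identifiers in the cyclic, pregnant and embryo samples (x), with the replicate number above each point, a line at the group mean and a triangle for 0 counts. In the upper panels cyclic sample 2 is the highest cyclic sample (285 and 1589 CPM), and in the lower panels cyclic sample 1 is the lowest (0.184 and 0.316 CPM).

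The members called between pregnant and cyclic endometrium were counted as a description. In the comparison of pregnant and cyclic endometrium within mares over all genes, 8 of the 149 members tested were past an adjusted p of 0.05 and a 2-fold change by the edgeR likelihood ratio test (5.37%), beside 1.79% of the 11892 genes tested. Of these 8 members 7 were higher and 1 was lower in pregnancy, beside 1.14% and 0.647% of all genes tested, and the pregnant mean was above the cyclic range in 6 and inside it in 2. The samples are those that chose the members, so nothing is read from these counts. By the quasi-likelihood test of edgeR 0 members were called, with 11 at an unadjusted p under 0.05, and DESeq2 called 11, while over all 11892 genes these tests called 1 and 237. Without cyclic or pregnant sample 1 the count of members was 21 and 22, as the count over all genes rose from 213 to 469 and 472. Without cyclic or pregnant sample 2 it was 23 in both fits, as the count over all genes fell to 171 and 159. Without cyclic or pregnant sample 3 it was 5 in both, with 141 and 136 over all genes. Because of the mare term, omission of either sample takes that mare out of the comparison, so each pair of omissions is nearly the same fit. Cyclic and pregnant values did not overlap in 5 of the 150 members, beside 3.66% of all filtered genes.

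Embryo libraries had no part in the choice of members. Of the 150 members, 90 (60%) were over 4 CPM in no embryo, against 20.2% of all filtered genes, and 20 had at most 3 counts in each embryo. In embryos 2 to 5, between 51 and 54 members were over 4 CPM, and 46 were so in all 4 of these embryos (30.7%, against 67.6% of all filtered genes). In embryo 1, 14 members were over 4 CPM and 86 were at 0 counts. The mean level over embryos 2 to 5 had a median of 0.49 on the log2 scale in members and of 4.02 over all filtered genes. The members were also lower than other genes in the pregnant endometrium, with a median of 4.12 against 5.18. The part of this in their low level in embryos was not tested. The difference between embryos 2 to 5 and pregnant endometrium had a median of -3.20 in members and of -1.23 over all filtered genes, and with embryo 1 it was -3.46 and -2.04.

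To ask which members were expressed more on the maternal side, embryos were compared with pregnant endometrium over all genes. A total of 113 members could be tested and 92 of them were called (81.4%) by the edgeR likelihood ratio test, beside 55.8% of the 11244 genes tested. Of the 92 members, 71 were higher in the pregnant endometrium and 21 were higher in the embryo, beside 28.6% and 27.1% of all genes tested. Every member had passed a filter of 4 CPM in endometrium, whereas the genes tested could also pass through embryos alone. Members low in embryos entered the fit through their pregnant samples, which favours calls higher in the endometrium. The shares of all genes tested are therefore not from a like set. The pregnant samples had a part in both the choice of members and this comparison. With library size and no scaling factors, 98 members were higher in the endometrium and 8 in the embryo, among 137 tested, beside 44.1% of all genes called in that fit. Of all 12046 genes in that fit, 4558 were higher in the endometrium and 754 in the embryo, so the tilt was not particular to members. This scaling moved the median log2 change of all genes tested from 0.04 to -1.39 and that of the members from -3.18 to -4.37. Without embryo 1, 81 members were higher in the endometrium and 23 in the embryo, among 121 tested, beside 59% of all genes called in that fit. Of all 11810 genes there, 3752 were higher in the endometrium and 3217 in the embryo.

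Members higher in the endometrium had a median of 38.7 CPM in pregnant endometrium and 0.591 CPM in embryos 2 to 5, and their log2 change had a median of -5.15. Members higher in the embryo had a median of 16.2 CPM in pregnant endometrium and 55.3 CPM in embryos 2 to 5, and reached 1424 CPM there. Not all of these calls held by CPM in embryos 2 to 5. The member with the lowest mean there had 4.01 CPM, against 6.91 to 8.68 CPM in the pregnant samples. The 37 members that were not tested had a median of 5.67 CPM in pregnant endometrium, and 1 of them was over 4 CPM in an embryo. Levels did not overlap between the 5 embryos and the 5 pregnant endometrium samples in 110 of the 150 members that were lower in each embryo, beside 59.7% of all filtered genes. Only 1 member was higher in each embryo than in each pregnant sample, beside 0.269%, and 1 was higher than in all 9 endometrium samples, beside 0.252%. Without embryo 1, 13 members were higher in each embryo than in each pregnant sample, beside 12.9%.

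The same comparison was counted by the cyclic sample that drove the spread. Of the 38 members with cyclic sample 2 above, 32 were tested, 22 were higher in the endometrium and 5 in the embryo. For cyclic sample 3 below, these numbers were 15 and 4 of 23 tested, and for cyclic sample 1 below, 7 and 6 of 18 tested. Over all 11244 genes tested, 28.6% were higher in the endometrium and 27.1% in the embryo. These shares were not counted for the filtered genes of each pattern. The differences between these groups were not tested, and nothing is read from them. In the 46 members over 4 CPM in embryos 2 to 5, the SD over these embryos had a median of 0.46 on the log2 scale, against 0.39 over the filtered genes that passed the same limit. With embryo 1 included, the 13 members over 4 CPM in all 5 embryos had a median SD of 1.22 against 1.69, so the order of members and other genes turned with that library.

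**Figure D5:**
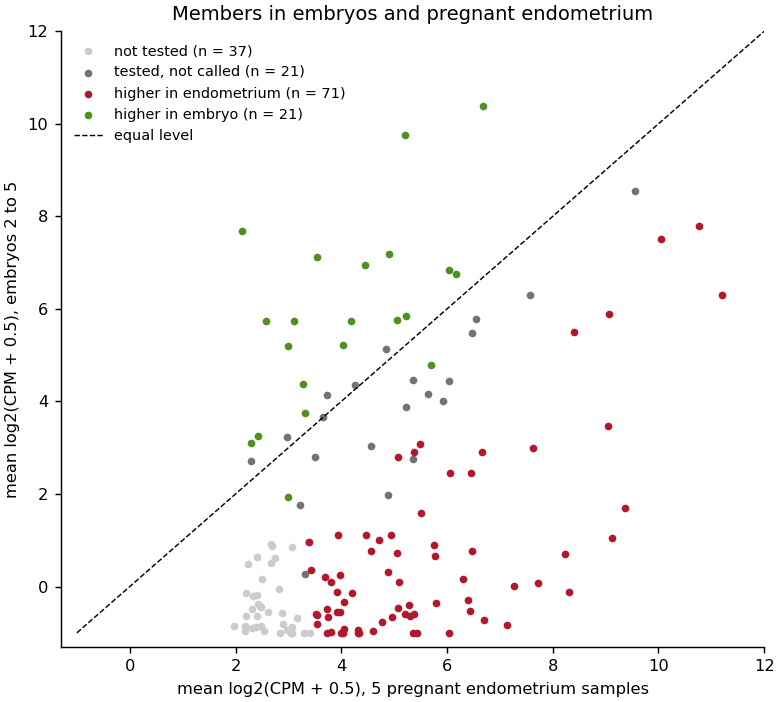
Mean log2(CPM + 0.5) of each member in the 5 pregnant endometrium samples (x axis) and in embryos 2 to 5 (y axis), with a dashed line of equal level and colours for the result of the comparison with all 5 embryos. The 71 members higher in the endometrium lie mostly near the floor of the embryo axis. Of the 21 called higher in the embryo, some lie below the line, as the fit used all 5 embryos and TMM factors.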

How the data were processed

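Messenger RNA was sequenced in 4 cyclic endometrium, 5 pregnant endometrium and 5 embryo samples. The authors trimmed adapters with cutadapt 1.11, mapped reads to the equine EquCab 2.80 reference and counted reads per Ensembl gene in CLC Genomics Workbench. They deposited these raw counts, which were used as deposited. How strand and multiply mapping reads were handled was not stated, so counts of overlapping genes and close copies are uncertain.

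Levels were log2(CPM + 0.5) on library totals. Group differences were fitted with edgeR 4.0.16 (R 4.3.3) after the study's methods: TMM factors, genes over 4 CPM in at least 4 fitted samples, and the likelihood ratio test, with calls at a Benjamini-Hochberg adjusted p under 0.05 and over 2-fold. Library sizes and factors were computed again after the filter. For pregnant against cyclic samples the model held a mare term, or block, since the study describes the same mares in both groups. Same-numbered samples deviated together with correlations from 0.0903 to 0.535, against a mean of -0.108 for different numbers. The embryo comparison had no such term, although each embryo was taken to come from the mare of its number, and deviations of same-numbered samples had a mean correlation of 0.024. Standard errors came from the fitted model. Samples that share a group are separate mares or embryos.

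The members, the lists and the tests were chosen with earlier results of these data known. Where symbols are lacking, the rule names the 2 members with the largest SD difference whose farthest cyclic sample lies above the cyclic mean and the 2 whose farthest sample lies below, which gave 4 identifiers. The 18 gene lists by symbol (cell types, hormones, interferon, cell cycle) could not be counted. Chi-square values over genes for all 91 pairs of libraries were at least 60.6 per degree of freedom, so no library was counted as a copy of another. The floor of 3 counts was 0.0639 to 0.138 CPM in endometrium libraries and covers counting error only, as reads carried no molecular identifiers. The fits and the choice of members were also run on simulated data, from which nothing is read here. For the choice, the simulated counts had the same dispersion for all genes and extra spread in cyclic samples only, unlike the real counts. Alternatives were DESeq2 1.42.0, its size factors, the quasi-likelihood test, other filters, scalings, pseudocounts and measures of spread, the block, and omission of each replicate. Positions and sequences were not analysed here.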

Additional observations from a re-analysis of the deposited data

Results flagged for a closer look

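In each group, the sample at either end of a set of values was compared with its nearest neighbour, for library measures and for the 4 identifiers. A wide gap was found in 11 of 33 sets. The limit used is passed in about 1 of 20 separate sets of normal values, a share that cannot be applied here. Values were not put on a log scale, measures of a library overlap, and 4 of the 11 gaps were in embryo 1. The identifiers were also chosen for their cyclic and pregnant spread. The gaps are given as a description. ENSECAG00000010818 had 285 CPM in cyclic sample 2 against 23.5 in the next cyclic sample, and 25.6 CPM in embryo 3 against 7.39 in the next embryo. ENSECAG00000016661 had 1589 CPM in cyclic sample 2 against 96.1 in the next. On the log2 scale the largest cyclic gap of these 2 identifiers took 44.6% and 60.6% of the range. The limit for 4 samples was a share of 0.829, so neither was wide on that scale. ENSECAG00000017238 had 0.0788 CPM in embryo 3, from 4 counts, and 0 in the other embryos. The members took 1.04% of the counts of pregnant sample 5, against 1.46% in the next pregnant sample. Embryo 1 had 14 members over 4 CPM against 51 in the next embryo. In the whole libraries, the number of genes with at least 10 counts was 4584 in embryo 1 against 12488 in the next embryo, with 1658 genes over 4 CPM against 9112 and 91.7% of its counts on its 10 most counted genes against 33.9%. Embryo 4 held 239.8 M counts against 50.8 M. Cyclic sample 4 had 11855 genes over 4 CPM against 11650. The causes were not tested.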

How the results depend on the processing

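The pregnant mean was inside the cyclic range for 89.3% to 98% of members under 18 alternatives of the choice. All 5 pregnant samples were inside for 77.3%. All 20 alternatives were within 1.5 times the reported share, a limit that the share over all filtered genes (80%) would also meet. Each choice again took genes with a wide cyclic spread, which favours a pregnant mean inside it. The limit therefore could hardly be missed, and nothing is read from it. Cyclic sample 2 was the farthest sample for 36% of members. It was so for 30.7% of members over 4 CPM in all 9 samples and for 29.3% of 300 members, and cyclic sample 3 then came first. Omission of a replicate gave from 19.3% to 62%, the lowest without cyclic sample 4 and the highest without cyclic sample 3, and cyclic sample 3 came first without cyclic samples 2 or 4 or pregnant samples 2, 3 or 4. Without cyclic sample 2 the share has no value. Membership depended on single libraries: from 86 to 128 of the 150 members were chosen again when a replicate was omitted, the fewest without cyclic sample 2, and 71 when all 9 samples had to be over 4 CPM, a limit the other members fail by construction. Scaling, pseudocount, range and the lower filter kept from 119 to 134, and the mean SD over sets of 4 pregnant samples kept 148.

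For embryo against pregnant endometrium (92 members called, beside 6272 of 11244 genes), all 17 alternatives were within 1.5 times, and omission of a replicate gave from 74 to 104. The lowest was without pregnant sample 3, beside 5595 of 10917 genes called. The highest was without embryo 1, beside 6969 of 11810. With the replicate block 87 were called, beside 5769 of 11244 genes. Of the 4 identifiers, ENSECAG00000010818 lost its call in 9 of 17 alternatives and kept its direction, and the other 3 stayed on the same side of the threshold in each alternative in which they were tested. For pregnant against cyclic endometrium (8 members called, beside 213 of 11892 genes), the quasi-likelihood test called 0, beside 1 gene of all. Without the replicate block 7 were called, 4 higher and 3 lower, beside 179 of 11892 genes. Counts from 5 to 23 resulted when a replicate was left out: 21 and 22 without cyclic or pregnant sample 1, 23 without cyclic or pregnant sample 2, and 5 without cyclic or pregnant sample 3. The counts over all genes in these fits, which also moved, are given in the results. With the mare term, a mare left with 1 sample adds almost nothing to the comparison. Omission of its cyclic or of its pregnant sample is therefore nearly the same fit. The same holds for pregnant sample 5, which had no cyclic partner and without which 7 were called, beside 198 of 11788 genes. Apart from the filter, the cause of the changes between mares was not tested.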
